A study of Rattus norvegicus with 2 samples.

Results

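Transcription factors that specify the oligodendrocyte lineage or drive its myelin genes were followed in rat oligodendrocyte precursor cells (OPCs) that overexpressed Slit1. The set has 10 genes, taken by symbol from a table of 17455: Olig1, Olig2, Sox8, Sox10, Nkx2-2, Nkx6-2, Tcf7l2, Myrf, Zfp488 and Zfp536. All 10 were listed, and 9 had a mean of at least 1 TPM (transcripts per 1000000, a level per transcript length scaled to an equal total in each library). Zfp536 lay below that level. The study holds 2 RNA-seq libraries, 1 per group, both from cells labelled OPC with a wild-type genotype. The control cells, called vector here, were transfected with vector and the others with Slit1, which encodes a secreted ligand of Robo receptors, with the same kind of kit. The sources used here do not give the strain, the origin of the cells or the time of harvest after transfection. With no replicate in either group, no difference has a replicate check and no p-value is given.

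The oligodendrocyte lineage is built by a cascade of transcription factors. The basic helix-loop-helix factors Olig1 and Olig2 and the homeodomain factor Nkx2-2 act early and throughout the lineage, and the SoxE protein Sox10 is needed for terminal differentiation. Sox10 switches on Myrf, a membrane-anchored factor whose cleaved N-terminal part binds myelin genes together with Sox10, while Zfp488, Nkx6-2 and Tcf7l2 are expressed as precursors mature into oligodendrocytes.

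The libraries held 18817462 (vector) and 18998770 (Slit1) estimated counts. Slit1 itself was at 1.70 TPM in vector and at 229.7 TPM in Slit1, a ratio of 135. The precursor markers Pdgfra (40.2 and 41.4 TPM in vector and Slit1) and Cspg4 (10.1 and 10.3 TPM) were present at similar levels. Several astrocyte markers were abundant in both libraries, with Gfap at 4694 and 6130 TPM, far above Pdgfra and Cspg4. The order did not hold for every marker. The astrocyte marker Aqp4 was at 389 and 462 TPM, below the precursor marker Ptprz1 at 914 and 688 TPM. In bulk RNA, more cells of a type and more RNA per cell cannot be told apart.

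The promoters of the factors that could be read are shown first, because several of these genes were higher together in the Slit1 library. RefSeq windows (build GRCr8) from 250 bases before to 50 bases after the annotated start were found for 6 of the 10 genes: Zfp488, Nkx6-2, Tcf7l2, Nkx2-2, Olig2 and Zfp536. The genes Zfp488 (chr16:9299879-9300178, minus strand), Nkx6-2 (chr1:203813073-203813372, minus strand) and Tcf7l2 (chr1:264791085-264791384, plus strand) were higher, and Olig2 (chr11:43961335-43961634, plus strand) differed little. Capitals mark matches, on either strand, to 5 short motifs of the factors' own families: ACAAT (Sox core), CAAAG (Tcf/Lef core), CANNTG (E-box, the motif class of Olig factors), CTGGNAC (Myrf) and CACTT (NK-2 core, the class of Nkx2-2).
Zfp488: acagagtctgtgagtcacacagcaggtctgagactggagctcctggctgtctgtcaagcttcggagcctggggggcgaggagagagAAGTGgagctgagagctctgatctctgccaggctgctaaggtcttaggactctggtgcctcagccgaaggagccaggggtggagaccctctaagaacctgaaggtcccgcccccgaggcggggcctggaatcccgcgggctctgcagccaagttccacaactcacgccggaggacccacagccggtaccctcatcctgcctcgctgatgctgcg
Nkx6-2: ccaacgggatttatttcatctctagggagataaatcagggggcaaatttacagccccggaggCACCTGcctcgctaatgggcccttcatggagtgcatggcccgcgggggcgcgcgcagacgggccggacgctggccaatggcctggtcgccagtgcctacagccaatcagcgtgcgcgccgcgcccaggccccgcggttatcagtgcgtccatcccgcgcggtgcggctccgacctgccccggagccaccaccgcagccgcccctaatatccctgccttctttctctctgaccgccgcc
Tcf7l2: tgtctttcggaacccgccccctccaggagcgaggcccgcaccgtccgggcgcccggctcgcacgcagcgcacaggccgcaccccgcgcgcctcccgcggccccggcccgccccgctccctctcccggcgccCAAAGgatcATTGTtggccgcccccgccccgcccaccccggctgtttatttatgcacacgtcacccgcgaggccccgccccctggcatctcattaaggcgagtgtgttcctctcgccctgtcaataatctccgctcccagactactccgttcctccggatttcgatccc
Olig2: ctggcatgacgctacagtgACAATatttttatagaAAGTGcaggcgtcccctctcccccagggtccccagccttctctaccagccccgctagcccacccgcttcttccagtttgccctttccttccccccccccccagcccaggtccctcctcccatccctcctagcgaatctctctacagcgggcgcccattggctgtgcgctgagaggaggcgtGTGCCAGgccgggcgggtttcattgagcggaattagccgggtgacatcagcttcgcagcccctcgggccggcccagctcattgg

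No motif was found in all 3 promoters of the higher genes. Zfp488 held 1 match, to CACTT, and Nkx6-2 held 1, to CANNTG. Tcf7l2 held CAAAG beginning 119 bases before the start and the reverse complement of ACAAT beginning 110 bases before it. Olig2 held 3 matches, to the Sox core, the NK-2 core and the Myrf motif. In the 4 windows shown 0 pairs of matches overlapped. The motifs were chosen after the sequences were seen, and they are common: of 33469 promoters of the same length, ACAAT was in 33.7%, CAAAG in 53.8%, CANNTG in 72.1%, CTGGNAC in 18.2% and CACTT in 46.2%. Among the 12277 promoters of assessed genes the shares were 20.9% for ACAAT, 46.4% for CAAAG, 62.99% for CANNTG, 17.9% for CTGGNAC and 42.1% for CACTT. A match is a description of the letters and not a binding site.

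Of the 9 factors assessed, 5 were at least 1.5-fold higher in the Slit1 library and 0 were lower by that amount. They were Myrf, Zfp488, Sox10, Nkx6-2 and Tcf7l2. Among all 13175 genes assessed, 3.72% were higher and 4.83% were lower by the same rule. The rule is a difference of log2(TPM + 1) past 1.5-fold where the mean of both libraries reached 1 TPM. The median difference of the factors was 0.97, against -0.05 for all genes. Olig1 and Olig2, the basic helix-loop-helix factors, had ratios of 0.940 and 1.04, and Sox8 and Nkx2-2 lay between these and the 5 higher genes.

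The count of higher factors was read against the same share over all genes under each alternative. It was 5 with a pseudocount of 0.1 (4.76% of all genes), with a pseudocount of 5 (1.96%), with no floor (3.36%), with a floor of 5 TPM (3.10%) and in FPKM (3.31%). Nkx6-2 passed the floor of 5 TPM only through its level in the Slit1 library (2.09 TPM in vector, 7.95 TPM in Slit1). The count was 6 with the median gene set to 0 (4.43%), in CPM (3.92%) and in CPM with edgeR TMM factors (4.04%). At a limit of 2-fold, 4 factors were higher against 1.24% of all genes, and at 3-fold the number was 3 against 0.364%, namely Myrf, Zfp488 and Sox10. Nkx6-2, with a TPM ratio of 3.80, missed the 3-fold limit on the log2(TPM + 1) scale, where the pseudocount of 1 lowers its difference to 1.53. Counting intervals wholly beyond 1.5-fold were found for 5 factors and 1.97% of all genes.

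**Figure D1:**
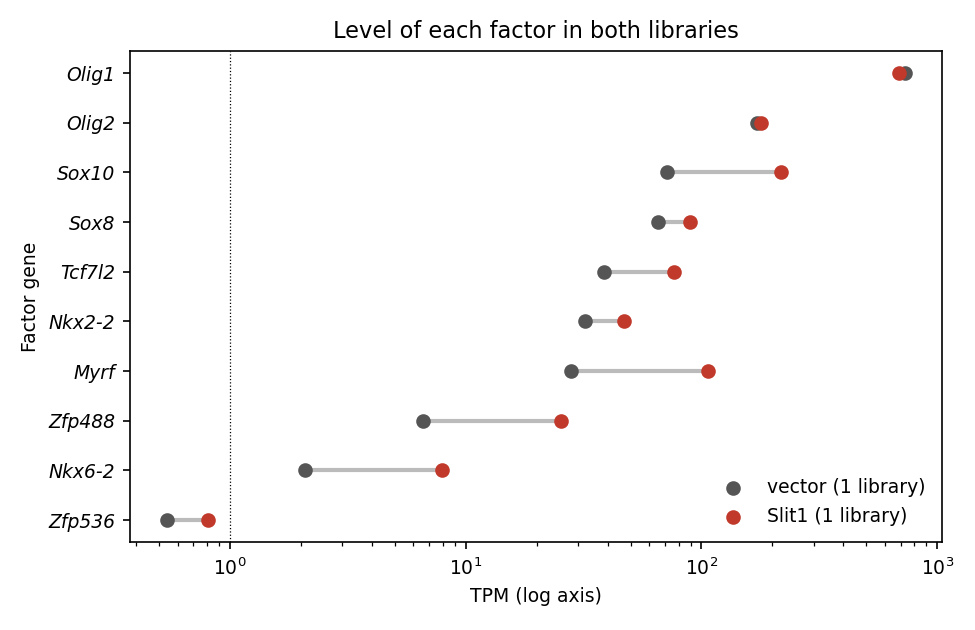
Level of each of the 10 factors in the vector library (grey points) and the Slit1 library (red points), in TPM on a log axis; the dotted line marks 1 TPM. Myrf, Sox10, Zfp488 and Nkx6-2 have the longest lines, the points of Olig1 and Olig2 nearly coincide, and Zfp536 lies below 1 TPM in both libraries.

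Myrf, the regulator of myelin genes, was at 27.98 TPM in vector and at 106.8 TPM in Slit1. These levels rested on 1312 and 5132 estimated counts. The TPM ratio was 3.82, with an exact 95% counting interval of 3.59 to 4.06. Such an interval holds counting error alone and leaves out differences between cultures. On the log2(TPM + 1) scale the difference of 1.89 ranked 24 among the 13175 genes assessed. Myrfl, the other Myrf family gene, was listed with 1 count in vector and 0 in Slit1, so the 2 libraries give no measure of its change.

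Sox10, the SoxE factor that Myrf acts with, was at 71.4 TPM in vector and at 218 TPM in Slit1 (1841 and 5847 estimated counts). Its TPM ratio of 3.05 (interval 2.90 to 3.22) ranked 48 by log2 difference. The level of Myrf per TPM of Sox10 was 0.392 in vector and 0.490 in Slit1, a ratio of 1.25 (exact conditional interval 1.15 to 1.36). Myrf was thus higher by a larger factor than Sox10, beyond counting error in these libraries.

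Zfp488, a zinc finger cofactor that interacts with Olig2, was at 6.60 TPM in vector and at 25.4 TPM in Slit1 (214.2 and 859 estimated counts). The ratio was 3.85 (interval 3.31 to 4.50). Of 252 assessed zinc finger genes named Zfp or Znf, 3 were at least 1.5-fold higher and 10 lower, against 3.72% and 4.83% of all genes. Zfp488 had the largest difference in the family, 1.80 on the log2 scale. The other higher genes, named after their values were seen, were Zfp579 (0.84) and Zfp111 (0.67). The numbers in the family moved with the scaling, to 6 higher and 5 lower with the median gene set to 0, while Zfp488 stayed among the higher genes in TPM, centred TPM, FPKM, CPM (counts scaled to an equal total, without length) and CPM with TMM factors.

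Zfp536, a repressor of neuronal differentiation that is also found in the oligodendrocyte lineage, was at 0.54 TPM in vector and at 0.81 TPM in Slit1. This rested on 28 and 46.9 estimated counts, and the ratio of 1.5 had an interval of 0.920 to 2.49. The interval reaches to both sides of equal levels, so the direction of a difference in Zfp536 was not settled at this depth.

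Nkx6-2, a homeodomain factor of maturing oligodendrocytes, was scarce but higher, at 2.09 TPM in vector and 7.95 TPM in Slit1. Its ratio of 3.80 had a wide interval (2.48 to 6.01), since it rested on 28.4 and 98.6 estimated counts. Its log2 difference of 1.53 fell to 0.87 with a pseudocount of 5, which compresses low genes, and the CPM ratio was 3.44.

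Nkx2-2, the homeodomain factor that represses Pdgfra, was at 32.0 TPM in vector and at 47.1 TPM in Slit1 (507.4 and 789.4 estimated counts). The ratio of 1.47 (interval 1.32 to 1.65) lay just below the 1.5-fold limit. Nkx2-2 passed the limit, and the number of higher factors became 6, with the median gene set to 0, in CPM and with edgeR TMM factors. Nkx6-2 per TPM of Nkx2-2 was 0.0654 in vector and 0.169 in Slit1, a ratio of 2.58 (interval 1.65 to 4.14). Of the 8 Nkx genes listed, 3 had a mean of at least 1 TPM. The third, Nkx2-1, measured 1.15 and 1.33 TPM, with an interval of the ratio from 0.654 to 2.05. Nkx6-1, which acts in the ventral progenitor domains, was listed with 1 and 4 counts.

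Tcf7l2, the effector of Wnt signalling that marks newly formed oligodendrocytes, was at 38.5 TPM in vector and at 76.2 TPM in Slit1 (1205 and 2457 estimated counts). The ratio was 1.98 (interval 1.85 to 2.12), the smallest of the 5 higher factors. Its relatives differed: Tcf7l1, mostly a repressor, measured 16.97 and 24.1 TPM (ratio 1.42, interval 1.25 to 1.61), and Tcf7 measured 2.68 and 2.06 TPM (ratio 0.769, interval 0.561 to 1.05). Lef1 lay below 1 TPM in both libraries. Tcf7l2 per TPM of Tcf7l1 went from 2.27 to 3.16, a ratio of 1.39 (interval 1.21 to 1.61). RefSeq lists 50 transcripts of Tcf7l2 in GRCr8, and the table gives 1 value per gene, so its splice forms were not analysed here.

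**Figure D2:**
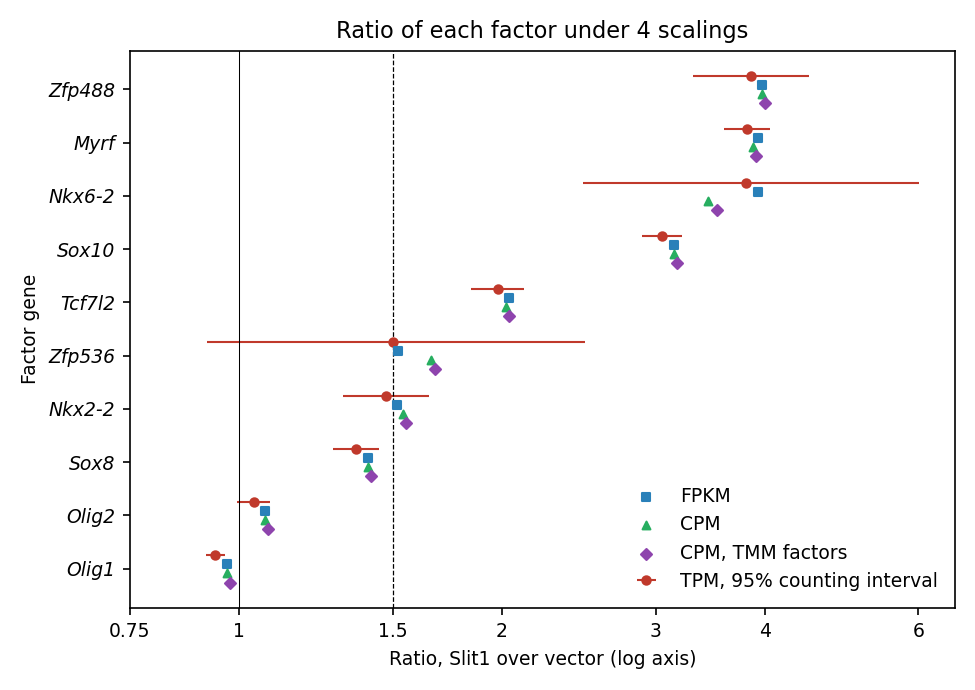
Ratio of each factor, Slit1 over vector, on a log axis. Red points with bars are TPM ratios with 95% counting intervals, the other symbols are FPKM, CPM and CPM with edgeR TMM factors, and the dashed line marks 1.5-fold. Myrf, Zfp488, Sox10, Nkx6-2 and Tcf7l2 lie beyond it with their whole intervals, and Nkx2-2 lies on either side of it according to the scaling.

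Olig1 was the most abundant of the factors, at 730.1 TPM in vector and 686 TPM in Slit1 (13218 and 12927 estimated counts). The ratio was 0.940, and its narrow interval of 0.917 to 0.963 reflects the depth. The log2 difference of -0.09 was -0.03 with TMM factors, so its distance from 0 depended on the scaling. Olig2 measured 171.4 and 178.1 TPM (3855 and 4169 estimated counts), with a ratio of 1.04 and an interval of 0.994 to 1.09 that includes 1. Olig1 per TPM of Olig2 was 4.26 in vector and 3.85 in Slit1.

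Since Olig2 differed little, the other factors were also expressed per TPM of Olig2, a ratio within each library that does not depend on its total. Sox10 per Olig2 went from 0.417 to 1.22, a ratio of 2.94 (interval 2.74 to 3.15), so that Sox10 was below Olig2 in vector and above it in Slit1. Myrf per Olig2 was 3.67-fold higher in Slit1 (interval 3.41 to 3.96), Zfp488 per Olig2 3.71-fold (interval 3.17 to 4.36) and Tcf7l2 per Olig2 1.90-fold (interval 1.75 to 2.07). Nkx2-2 per Olig2 was 1.42-fold higher (interval 1.26 to 1.60). The summed level of the 10 factors was 1146 TPM in vector and 1435 TPM in Slit1. Olig1 and Olig2 made up 78.7% of it in vector and 60.2% in Slit1, and the share of the 5 higher factors was 12.8% and 30.3%.

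**Figure D3:**
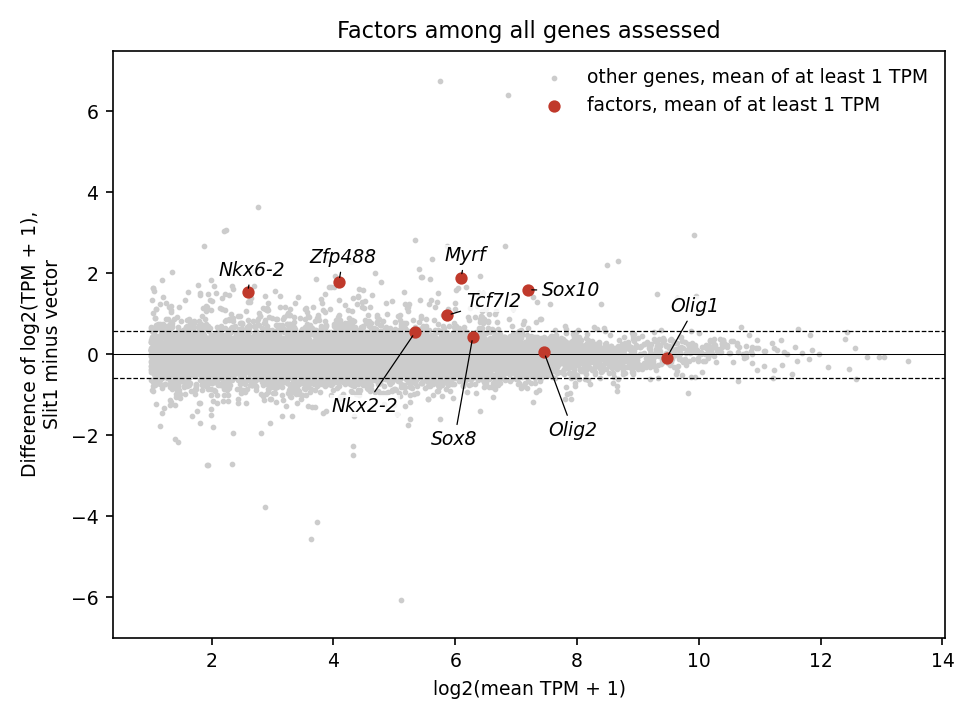
Difference of log2(TPM + 1), Slit1 minus vector, against log2(mean TPM + 1) for the 13175 genes assessed (grey) and the 9 assessed factors (red). Dashed lines mark 1.5-fold. Myrf (1.89), Zfp488 (1.80), Sox10 (1.60) and Nkx6-2 (1.53) lie at the upper edge of the cloud, and Olig1 and Olig2 lie within it.

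The SoxE group consists of Sox8, Sox9 and Sox10, close relatives that bind the same kind of site. Sox8, which supports Sox10 in myelinating cells, was at 65.3 TPM in vector and at 89.0 TPM in Slit1 (1805 and 2559 estimated counts), a ratio of 1.36 (interval 1.28 to 1.45). Sox9, which acts earlier in gliogenesis and is kept in astrocytes, went the other way, at 82.5 and 60.1 TPM (ratio 0.728, interval 0.688 to 0.771). Sox9 was the highest of the SoxE genes in vector and the lowest in Slit1. Sox10 made up 32.6% of the summed SoxE level in vector and 59.4% in Slit1, while the share of Sox9 was 37.6% and 16.4%. Sox10 per TPM of Sox9 was 4.19-fold higher in Slit1 (interval 3.88 to 4.53).

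**Figure D4:**
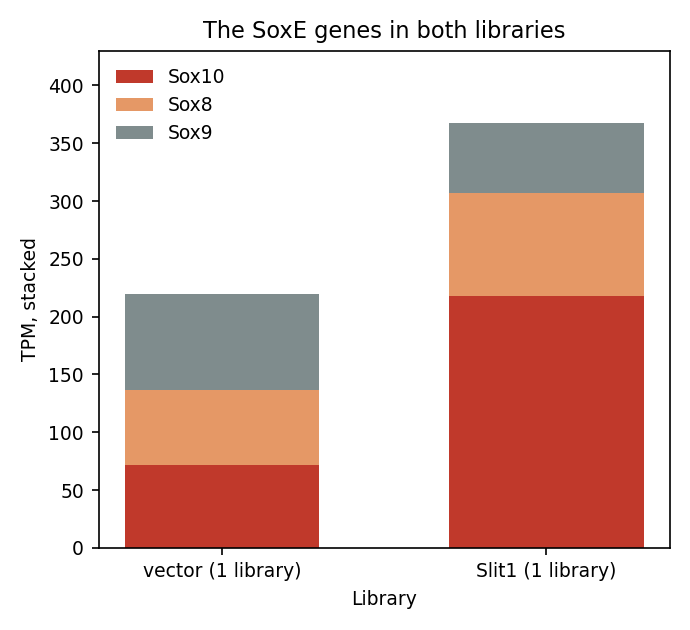
Stacked TPM of the SoxE genes Sox10, Sox8 and Sox9 in each library. The sum was 219.2 TPM in vector and 367.1 TPM in Slit1, and the added height lies mostly in the Sox10 segment.

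Of the 14 assessed genes of the whole Sox family, Sox10 was the only one at least 1.5-fold higher in TPM. Over all genes assessed, 3.72% were higher and 4.83% lower in TPM. Sox10 was also the only higher one of the family with the median gene set to 0, in FPKM, in CPM and with TMM factors. In TPM 3 were lower: Sox7 (24.8 and 12.5 TPM, 1.99-fold lower, interval 1.75 to 2.27), Sox11, a factor of immature cells (11.9 and 6.54 TPM, 1.82-fold lower), and Sox5, a SoxD protein that opposes Sox10 (9.34 and 5.84 TPM, 1.60-fold lower, and less than 1.5-fold lower with the median gene set to 0 and in FPKM on the log2(value + 1) scale). The other SoxD genes, Sox6 and Sox13, had ratios of 1.07 (interval 1.02 to 1.12) and 1.17 (interval 1.01 to 1.35). Sox2, the most abundant Sox gene in vector, measured 394.4 and 340.7 TPM, a ratio of 0.864. Sox10 per TPM of Sox2 was 0.181 in vector and 0.640 in Slit1.

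Genes that Sox10 and Myrf are known to act on, or that belong to the myelin programme, were read as a list of 25, of which 19 were assessed. Of these, 17 were at least 1.5-fold higher and 0 lower, against 3.72% and 4.83% of all genes assessed, with a median log2 difference of 1.43. Mbp (7.73-fold), Mag (7.74-fold) and Cldn11 (6.78-fold), which encode proteins of myelin, and Enpp6 (5.41-fold), a choline phosphodiesterase of newly formed oligodendrocytes, differed most on the log2(TPM + 1) scale. These ratios exceeded that of Myrf. The genes between the limits were Rffl (ratio 1.45) and Aspa (ratio 0.873, interval 0.682 to 1.12), named after their values were seen. Mog, a late myelin gene, had a larger TPM ratio of 12.9, but it rested on 3.88 and 33.4 counts (interval 4.58 to 49.99). In CPM the ratio of Mog was 8.51. Mog is among the 17 higher genes, and it reached a mean of 1 TPM only through the Slit1 library (0.15 TPM in vector, 1.93 TPM in Slit1). This list was chosen with earlier results of these data known and is no independent evidence of its direction.

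Other transcription factors of the lineage formed a list of 22 without the 10 above. Of 16 assessed, 2 were at least 1.5-fold higher and 4 lower, against 3.72% and 4.83% of all genes assessed, with a median of -0.14. The higher ones were Thra, the thyroid hormone receptor alpha (102.9 and 172.9 TPM, 1.68-fold, interval 1.59 to 1.78), and Creb3l1 (21.4 and 34.7 TPM, 1.62-fold). The lower ones included Zeb2, a factor that promotes myelination (49.2 and 29.9 TPM, 1.65-fold, interval 1.52 to 1.79), and Zfp24, a zinc finger factor required for myelination (111.5 and 68.4 TPM, 1.63-fold). Zfp24 did not keep this call in CPM, where its ratio was 0.785. Tcf4, an E protein partner of Olig2 (1.53-fold lower), and Klf9, a thyroid hormone target (1.52-fold lower), complete the count and were named after their values were seen. By this rule 2 were higher and 2 lower in centred TPM and in FPKM, and 3 were higher and 1 lower in CPM and with TMM factors.

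Factors that hold back differentiation went both ways. Of 12 assessed from a list of 13, 2 were higher and 2 lower, against 3.72% and 4.83% of all genes assessed, with a median of 0.03. Hes5, an effector of Notch that represses oligodendrocyte genes, was 3.70-fold higher in TPM from 9 and 48 counts (interval 1.80 to 8.59). In CPM the ratio of Hes5 was 5.28. Id3, an inhibitor of helix-loop-helix factors, was 1.56-fold higher (251.6 and 391.9 TPM, interval 1.47 to 1.65). The lower ones were Sox11 and Sox5. Id2 and Id4, relatives of Id3 that bind the partners of Olig proteins, had log2 differences of -0.17 and -0.38.

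Chromatin regulators and cofactors that act with these factors differed little. Of 14 assessed, 0 were higher and 0 lower, with a median of 0.06 and a range of -0.30 to 0.34. Among all genes assessed 3.72% were higher and 4.83% lower, so a count of 0 among 14 is near that share. The largest differences were in Ezh2, a histone methyltransferase (25.8 and 32.9 TPM, ratio 1.28), Tle4, a corepressor (ratio 0.805), Smarcb1 (ratio 1.21) and Smarca4, the ATPase Brg1 that works with Olig2 (115.7 and 133.4 TPM, ratio 1.15, interval 1.11 to 1.20). Of the genes that act on the Myrf protein or resemble it, 2 of 3 were assessed, and 0 were higher or lower by 1.5-fold. Tmem98, a membrane protein that binds Myrf and restrains its cleavage, measured 52.8 and 39.2 TPM (ratio 0.743, interval 0.658 to 0.838). Fbxw7, part of a ubiquitin ligase that targets Myrf, had a ratio of 0.843 (interval 0.706 to 1.01).

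Targets of Wnt and beta-catenin were read beside Tcf7l2. Of 7 assessed from a list of 14, 1 was higher and 2 lower, against 3.72% and 4.83% of all genes assessed, with a median of -0.21. Ccnd1, which encodes cyclin D1, measured 521.6 and 280.7 TPM (1.86-fold lower) and Znrf3, a feedback inhibitor of Wnt receptors, 2.65 and 1.33 TPM (1.99-fold lower, interval 1.47 to 2.72). Axin2, the common feedback target, measured 5.31 and 3.81 TPM (ratio 0.718, interval 0.573 to 0.896). Tnfrsf19 was higher, at 15.4 and 28.4 TPM (1.84-fold). Ctnnb1, which encodes beta-catenin, measured 584.8 and 485.5 TPM (ratio 0.830, interval 0.812 to 0.849).

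**Figure D5:**
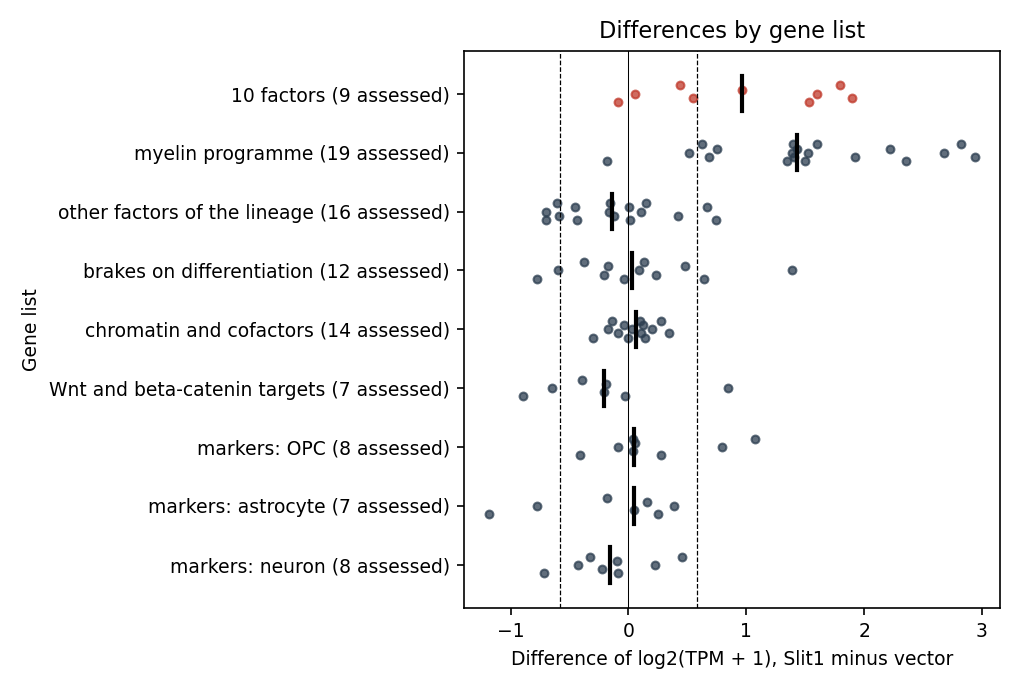
Difference of log2(TPM + 1), Slit1 minus vector, for the assessed genes of each list (points), with the list's median as a black bar and dashed lines at 1.5-fold. The 10 factors (median 0.97, 9 assessed) and the myelin programme (1.43) lie mostly to the right, and the medians of the other lists plotted lie between -0.21 and 0.06.

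Markers of the cell types that the culture could hold were measured beside the factors. The shares over all genes assessed, to be set beside each count below, were 3.72% higher and 4.83% lower. Of 8 assessed precursor markers 2 were higher and 0 lower, with a summed level of 2142 TPM in vector and 2011 TPM in Slit1. This list holds Olig1 and Olig2, and without them the sum was 1240.2 and 1147 TPM. Most of that sum was Ptprz1 (913.6 and 688.2 TPM, ratio 0.753), and the other markers in it had ratios above 1. The counting interval included 1 for Pdgfra (0.970 to 1.09) and Cspg4 (0.925 to 1.14). It also did for Susd5 (5 and 7 counts, 0.359 to 5.24), named after its values were seen. The 2 that were at least 1.5-fold higher were C1ql1 (2.12-fold) and Vcan (1.77-fold). Of 7 assessed astrocyte markers 0 were higher and 2 lower, namely the glutamate transporter gene Slc1a2 (215.4 and 94.1 TPM, 2.29-fold lower) and the connexin gene Gja1 (506.2 and 295.7 TPM, 1.71-fold lower). The summed astrocyte level was 8276 TPM in vector and 9358 TPM in Slit1, and without Gfap 3582 and 3228 TPM. Sox9, Sox8 and Tcf7l2 are also expressed by astrocytes, and the part of these cells in their values was not tested.

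Of 8 assessed neuron markers 0 were higher and 1 lower, the neurofilament gene Nefl from 29.99 and 12 counts. Nefl reached a mean of 1 TPM only through the vector library (1.75 TPM in vector, 0.67 TPM in Slit1). In FPKM 0 neuron markers were lower. The summed level of the neuron markers was 175.2 and 178.1 TPM. Microglial markers summed to 1.11 and 1.42 TPM over the 5 that were listed. Endothelial markers summed to 5.27 and 3.63 TPM. The 1 assessed among them, Flt1, was lower (4.51 and 2.25 TPM, ratio 0.499, interval 0.400 to 0.620), while Kdr, below 1 TPM and named after its values were seen, had 12 and 42 counts. Mesenchymal markers summed to 11.7 and 12.4 TPM, and of 2 assessed 0 were higher or lower. Schwann cells and neural crest also express Sox10. Of 4 assessed markers of these cells 0 were higher and 1 lower, namely Egr2, a zinc finger factor of myelinating Schwann cells (11.4 and 4.69 TPM, 2.43-fold lower, interval 1.96 to 3.02). Pmp22, which is not specific to them, measured 377.9 and 300.8 TPM. Foxd3, a neural crest factor named after its values were seen, had 1 and 0 counts. Markers of motor neurons and V3 neurons, which arise from Olig2 and Nkx2-2 domains, summed to 0.31 and 0.79 TPM over the 3 listed.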

How the data were processed

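The authors deposited 1 table of 17455 genes with FPKM, TPM and read counts per library, per the file headers. The deposited TPM values sum to 1000000 per library, and the deposited FPKM values to 459452 (vector) and 473673 (Slit1). The deposited read counts are estimated counts, of which 26.1% and 31.4% lie within 0.01 of a whole number. Per the submitters' processing notes the build was mRatBN7.2; the sources used here do not give aligner, counter, annotation or strand handling. The number of value columns of other samples was 0.

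Values of log2(TPM + 1) in vector were subtracted from those in Slit1 for 13175 genes whose mean reached 1 TPM, and differences were called at 1.5-fold (Python 3.11.15, scipy 1.17.1). Exact 95% intervals of ratios came from rounded counts, carried to TPM, and those of ratios between genes from the conditional odds ratio. Calculations were tested on simulated data. Settings tried besides were a pseudocount of 0.1 or 5, no floor or one of 5 TPM, a limit of 2-fold or 3-fold, the median gene set to 0, FPKM, CPM, CPM with TMM factors (edgeR 4.0.16) and intervals wholly beyond 1.5-fold. Named were all 10 factors, their families, up to 4 genes with the largest difference per list, and 8 genes fixed by name; some genes of these lists are not reported here. The factors and lists were chosen with earlier results of these data known. Promoters are RefSeq's (GRCr8), used for sequence only.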

Additional observations from a re-analysis of the deposited data

How the results depend on the processing

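With 1 library per group, leaving out a library was not possible. Both libraries carry replicate number 1 and would form a single pair, which gives no spread between pairs, so no paired test was possible. The number of factors at least 1.5-fold lower was 0 under all 11 alternatives. The number higher was 5 or 6 under 9 of them, 4 at a fold limit of 2 and 3 at a limit of 3, which leaves Myrf, Zfp488 and Sox10. The factors' median of 0.97 became 0.76 with no floor, which adds Zfp536, and 0.80 in CPM and 0.82 with TMM factors, where Zfp536 also passes the floor. Of 60 values of single factors under other pseudocounts and scalings, 53 stayed within the counting interval of the first value; with a pseudocount of 5 Myrf moved to 1.76, Zfp488 to 1.39 and Nkx6-2 to 0.87, and Olig1 lay between -0.05 and -0.03 under the other scalings. All 28 values of ratios between genes stayed within their intervals in FPKM and CPM. In FPKM this was fixed in advance, because TPM is FPKM times a constant within a library. Only the CPM values could have moved.

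Small counts in the other lists moved with the settings. Of the other lineage factors (2 higher and 4 lower), 2 were lower with a pseudocount of 5, with the median gene set to 0, in FPKM or with intervals wholly beyond 1.5-fold (where 1 was higher), 1 in CPM or with TMM factors (where 3 were higher), and 0 were higher or lower at fold limits of 2 and 3. Of the factors that hold back differentiation (2 and 2), 1 was higher with a floor of 5 TPM, at a limit of 2 or with intervals beyond 1.5-fold, and 0 at a limit of 3; 1 was lower in centred TPM and in FPKM, and 0 with a pseudocount of 5, at limits of 2 and 3 or with intervals beyond 1.5-fold. Of the myelin programme 7 were higher at a limit of 3, against 17. Of the Wnt targets (1 and 2), 1 was lower with a pseudocount of 5, a floor of 5 TPM, in FPKM or with intervals beyond 1.5-fold, and 0 were higher or lower at limits of 2 and 3. The cause was not tested, except for what holds by construction. Stricter limits and floors leave fewer genes, a larger pseudocount shrinks differences, and setting the median gene to 0 shifts every gene by the same amount. Between the scalings the median of all genes moved by less than 0.1 on the log2 scale. The share of higher genes among all called was 43.5% in TPM, 54.3% with the median gene set to 0, 54.2% in FPKM, 52.3% in CPM and 53.6% with TMM factors. Depth limits Zfp536 and Nkx6-2, each with 28 counts in vector.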

Other observations

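The counts that 1 TPM was worth, which move with the transcript length used in the authors' estimate, changed by about the same factor for most of the factors: from 25.8 to 26.8 for Sox10, from 27.6 to 28.8 for Sox8, from 18.1 to 18.8 for Olig1 and from 22.5 to 23.4 for Olig2. Relative to the median gene the shift was 0.00 on the log2 scale for these 4 genes and for Zfp488. It was -0.02 for Myrf, -0.01 for Tcf7l2 and 0.02 for Nkx2-2. The largest shifts were in the scarcest factors, -0.19 for Nkx6-2, where 1 TPM was worth 13.6 counts in vector and 12.4 in Slit1, and 0.10 for Zfp536, where it was worth 51.9 and 57.9. For Nkx6-2 the ratio was accordingly 3.80 in TPM, 3.93 in FPKM, 3.44 in CPM and 3.53 with TMM factors, and for Zfp536 it was 1.5, 1.52, 1.66 and 1.68.

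Genes whose annotated span overlaps a factor were counted in RefSeq (GRCr8). Tcf7l2 overlaps 2 genes and Zfp536 overlaps 3, all known only by identifiers, and 0 of them were listed in the table; the other 8 factors overlap 0. The share of reads from these genes in the values of Tcf7l2 and Zfp536 was not tested.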
